A study of Homo sapiens with 6 samples.

Results

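The genes described here are 44 islet G protein-coupled receptors and cAMP pathway genes: 20 receptors, 8 G protein alpha subunits, 6 adenylyl cyclases, 5 phosphodiesterases and 5 cAMP effectors. They were taken by name from a list, matched to the gene names of each locus in the authors' deposited tables, which held 61695 loci. The name PDE3B stood in 2 loci, of which only the more abundant was used. The 44 genes were thus read at 43 distinct loci, because FFAR1 and FFAR3 shared 1. A total of 42 of these loci had an adjusted p, among 30206 in all. The remaining locus, that of ADRA2C, had no read. At transcript level, 368 of 274669 transcripts carried a member's name, and 136 of these were tested.

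The cells were EndoC-βH1, a human beta cell line made from fetal pancreas with a viral large T antigen and telomerase, and every library came from this 1 line. Wells were seeded with 75000 cells each, which had 24 h to attach in serum-free medium at 11 mM glucose. The 3 cytokine libraries came from cells exposed for 24 h to IL-1β at 5 ng/ml, TNF-α at 10 ng/ml, IFN-γ at 50 ng/ml and IL-17 at 100 ng/ml, and the 3 control libraries received none of these. The source labels place the controls ahead of the exposure, whereas the extraction protocol describes 24 h in the absence of cytokines, so an effect of time in culture cannot be told apart from one of the cocktail. Nothing in the labels says whether libraries of a group came from separate cultures. The p-values therefore rest on the spread among these libraries, and that spread may be technical. RNA was measured in bulk, so fewer cells with a transcript and less of it per cell cannot be told apart.

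Beta cells read hormones, transmitters and nutrients through G protein-coupled receptors. Receptors coupled to Gs, such as those for the incretins, raise cAMP through adenylyl cyclases and strengthen insulin release, while receptors coupled to Gi, such as those for adrenaline and somatostatin, lower cAMP and restrain it, and receptors coupled to Gq act through phospholipase C and calcium. Phosphodiesterases degrade cAMP. Protein kinase A and the exchange factor Epac2 carry its signal onward, and CREB and CREM act on genes with cAMP response elements (CRE).

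The authors' deposited tables hold the comparison only, so values per library were not used here. Levels are given as mean normalized counts per library in each group, computed from the deposited mean over all 6 libraries and the fold change, or as FPKM, which allows comparison between genes. Depth averaged 40881975 normalized counts per library. Of 15 beta cell markers, 13 had an FPKM value and all 13 were at 1 FPKM or more in both groups. The other 2, INS and CHGA, exceeded what Cuffdiff processed, and the deposited INS locus also held IGF2 and H19. The beta cell markers were split. MAFA, a transcription factor of mature beta cells, was at 33.0 FPKM in control and 10.6 in cytokine cells, while ABCC8, a subunit of the ATP-sensitive potassium channel, was at 28.5 and 45.8 FPKM, and IAPP, in a locus with SLCO1B genes, at 3.84 and 14.1 FPKM. The transcription factors PDX1 and NKX6-1 were at 145 and 146 FPKM and at 91.3 and 90.3 FPKM. Summed over the 13 markers the level was 1256 against 989 FPKM. Markers of other cells were also listed. The endothelial markers summed to 0.00487 FPKM in control and 0.0313 in cytokine cells, with CDH5 listed at 0 in control. Of the 5 immune markers, only CD68 reached 1 FPKM, in a locus it shares with EIF4A1 and other genes, and CD3E was listed at 0 in both groups. Of 5 acinar markers only CPA1 reached 1 FPKM, at 33.7 in control and 25.5 in cytokine cells. The alpha cell hormone GCG was at 0.258 against 0.101 FPKM, although 2 of 4 alpha cell markers, TTR and IRX2, were above 1 FPKM. Of 4 markers of delta, PP and epsilon cells, 2 were above 1 FPKM, SST at 3.15 against 3.97 and GHRL in a locus shared with SEC13, and PPY was at 0.0231 against 0.0304. The ductal markers summed to 140 against 169 FPKM, led by KRT19 and by MUC1, in a locus with KRTCAP2, and the fibroblast markers to 29.3 against 35.1 FPKM, led by PDGFRA in a locus with FIP1L1. The part of these marker differences in the results below was not tested.

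The receptors and the cAMP machinery did not move as a block. With cytokines, 12 of the 42 tested loci rose and 23 fell at a DESeq adjusted p under 0.05 in the authors' deposited table, which is 28.6% and 54.8% of them. Over all loci tested, 18.0% rose and 19.7% fell. Abundant genes were called more often in this table: among loci of at least 1000 normalized counts, 32.9% rose and 45.3% fell. Of the 26 members' loci of that abundance 6 rose and 16 fell. The median log2 fold change was -0.17 over the 42 loci, 0.05 over all loci tested and -0.06 over loci of at least 1000 counts. Most falls were small, and the rises included the larger changes. A rise of at least 2-fold was called at 8 loci (ADRB1, GALR1, CNR1, FFAR2, CHRM3, ADCY8, PDE1C and CREM). A fall of that size was called at 3 (SSTR5, P2RY1 and PDE8B). Over all loci, 6.53% rose and 3.27% fell by as much. Of the 8, ADRB1, GALR1 and CNR1 were under 50 counts and not tested by Cuffdiff. Among the members' loci of at least 1000 counts, 2 rose and 0 fell at least 2-fold. By role, 7 of 18 receptor loci rose and 8 fell, while 5 of 24 loci of the downstream genes rose and 15 fell. The counts by role that follow rest on 5 to 8 loci each and are read beside these shares over all loci, so none is a result about its role.

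**Figure D1:**
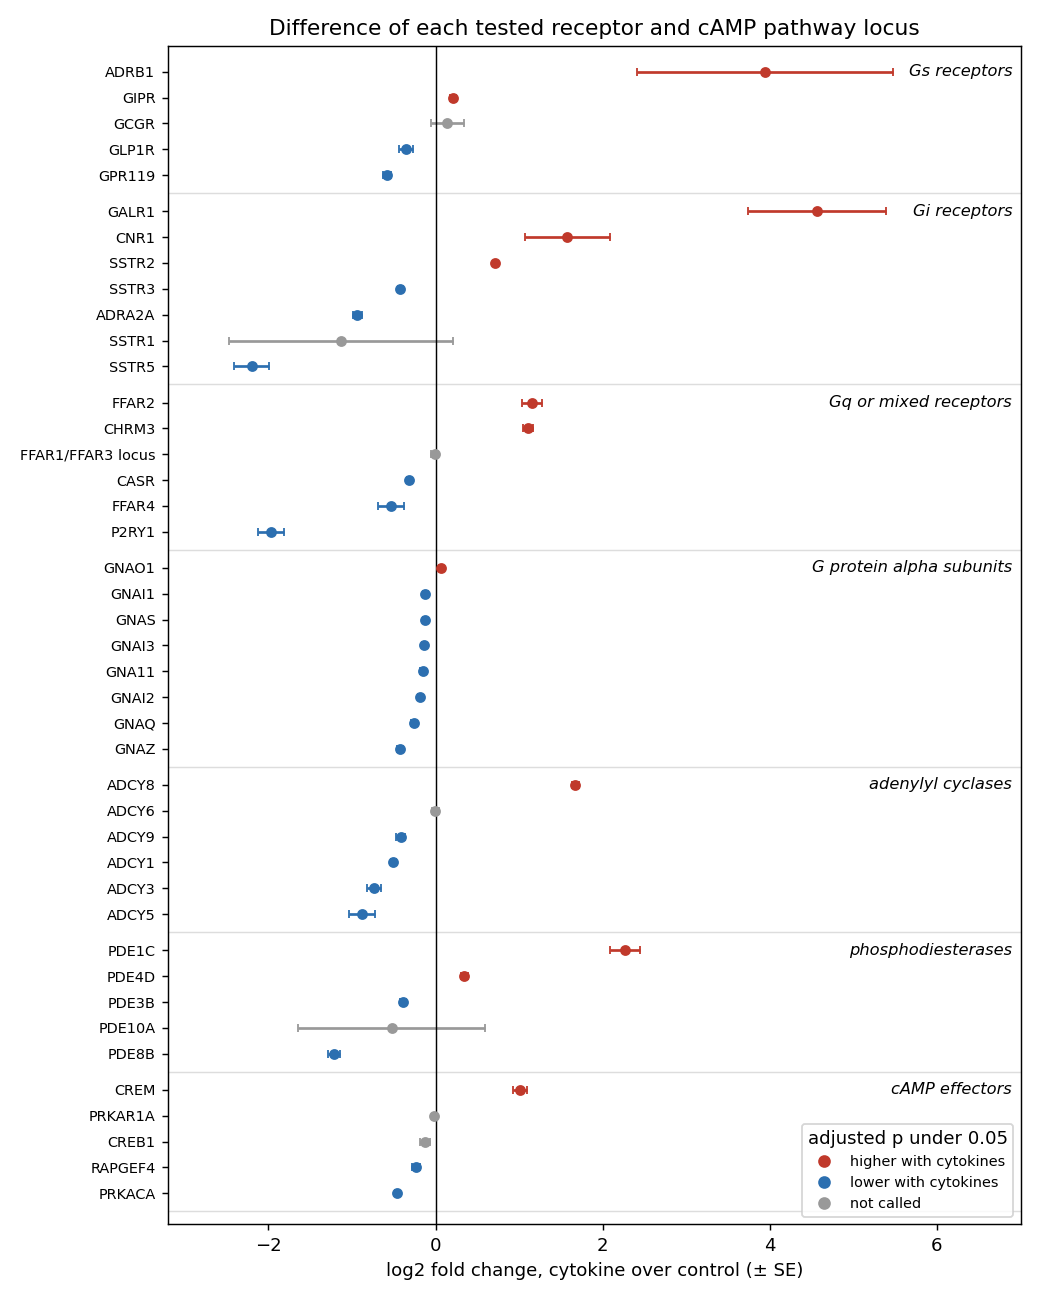
The log2 fold change of cytokine over control (horizontal axis, bars are the SE of the deposited DESeq fit) is plotted for the 42 tested loci, grouped by role. Red points rose, blue points fell and grey points did not pass the threshold. The G protein alpha subunits lie between -0.43 and 0.06, while receptors run from -2.20 to 4.57.

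Among the Gs-coupled receptors the 2 incretin receptors went in opposite directions. GLP1R, the receptor for GLP-1 (chr6:39048781-39091303, plus strand, GENCODE 44), was at 629 counts in control and 491 in cytokine cells, a log2 fold change of -0.36 ± 0.09 (SE) with a DESeq adjusted p = 0.000108 in the authors' deposited table. GIPR, the receptor for GIP (chr19:45668221-45683722, plus strand), was at 4191 counts in control and 4841 in cytokine cells, a rise of 0.21 ± 0.03 on the log2 scale (DESeq adjusted p = 4.37e-10 in the authors' deposited table). GIPR was at 0.16 and not called by Cuffdiff in the authors' deposited table (q = 0.595), whereas GLP1R fell there too, by 0.52 (Cuffdiff q = 0.0257). GIPR was the more abundant of the 2 in both groups, at 34.3 against 2.94 FPKM in control and 38.4 against 2.04 FPKM in cytokine cells. The 1 annotated GLP1R transcript held 15.9% of the locus FPKM in control, at 0.467, and was at 0.278 in cytokine cells.

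GPR119, a receptor for lipid amides that also acts through Gs, fell from 2162 to 1448 counts, a log2 fold change of -0.58 ± 0.05 (DESeq adjusted p = 5.35e-36 in the authors' deposited table). Its level went from 14.9 to 10.0 FPKM. GCGR, the glucagon receptor, was low at 84.1 and 92.8 counts, and did not pass the threshold (0.14 ± 0.20, DESeq adjusted p = 0.676 in the authors' deposited table). Cuffdiff gave it the other sign, -0.08 (q = 0.947 in the authors' deposited table). ADRB1, the beta-1 adrenergic receptor, passed the DESeq threshold (adjusted p = 0.0286 in the authors' deposited table) on very few reads, with about 1 normalized count over the 3 control libraries and 16 over the 3 cytokine libraries. That ratio of 16.0 has a 95% exact interval from 2.49 to 671, which covers counting error only. It was not tested by Cuffdiff and stood at 0.0357 FPKM with cytokines. Of the 5 Gs-coupled receptors, 2 rose and 2 fell by DESeq, and Cuffdiff called no rise among 4 tested.

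The somatostatin receptors, Gi-coupled receptors through which delta cells restrain insulin release, diverged among themselves. SSTR5 fell from 182 to 39.6 counts, a log2 fold change of -2.20 ± 0.21, or 4.60-fold (DESeq adjusted p = 6.51e-25 in the authors' deposited table), and from 2.33 to 0.491 FPKM. This was the steepest fall among the 42 loci. SSTR3 was more abundant and fell less, from 8956 to 6695 counts (-0.42 ± 0.03, DESeq adjusted p = 4.55e-63 in the authors' deposited table). SSTR2 went the other way. Its locus, which also holds COG1, a subunit of a Golgi tethering complex, rose from 13007 to 21339 counts (0.71 ± 0.02, DESeq adjusted p listed as 0 in the authors' deposited table). The transcripts named SSTR2 went from 32.4 to 57.9 FPKM, those named COG1 from 18.4 to 22.0 FPKM, and the transcript SSTR2-201 rose by 0.83 on the log2 scale (Cuffdiff isoform q = 0.000833 in the authors' deposited table). The order of SSTR2 and SSTR3 in control depended on the measure. On named transcripts, SSTR3 stood at 34.6 FPKM and SSTR2 at 32.4 in control. With cytokines these were at 29.7 FPKM for SSTR3 and 57.9 for SSTR2. Over whole loci, that of SSTR2 with COG1 was the higher in both groups. It stood at 55.0 against 51.3 FPKM in control and 85.0 against 39.4 with cytokines.

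The 2 deposited analyses disagreed on SSTR1. It had 3.0 counts in control and 1.37 with cytokines in the count table, a log2 fold change of -1.13 ± 1.34 that did not pass (DESeq adjusted p = 0.601 in the authors' deposited table). The FPKM table gave 34.1 in control and 40.7 with cytokines, a rise of 0.25 (Cuffdiff q = 0.000232 in the authors' deposited table). Among 34 members' loci of at least 1 FPKM in control, the median ratio of counts to FPKM was 153. The lowest was that of SSTR1, at 0.0584, and the next lowest that of the FFAR1 and FFAR3 locus, at 17.3. The cause was not tested, and no direction is given for SSTR1.

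ADRA2A, the alpha-2A adrenergic receptor through which adrenaline restrains insulin release, fell from 1997 to 1044 counts, a log2 fold change of -0.94 ± 0.05 (DESeq adjusted p = 1.00e-73 in the authors' deposited table). Its single annotated transcript fell from 7.27 to 3.63 FPKM (Cuffdiff isoform q = 0.000833 in the authors' deposited table). ADRA2C had no read in any library, which allows up to 3 counts over all 6 libraries, for counting error only. GALR1, a receptor for galanin, another Gi-coupled restraint on insulin release, rose from near absence, with about 4 normalized counts over the control libraries and 90 over the cytokine libraries (log2 fold change 4.57 ± 0.82, DESeq adjusted p = 1.47e-07 in the authors' deposited table). The ratio of those totals, 22.5, has a 95% exact interval from 8.49 to 84.4. CNR1, the cannabinoid receptor, rose from 7.64 to 22.8 counts (1.58 ± 0.50, DESeq adjusted p = 0.00565 in the authors' deposited table). GALR1 and CNR1 stayed at 0.0552 and 0.127 FPKM with cytokines, and Cuffdiff tested neither. Of the 8 tested loci with a Gi-coupled receptor, the FFAR1 and FFAR3 locus among them, 3 rose and 3 fell, and leaving out loci under 50 counts took away the rises of GALR1 and CNR1.

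The receptors for free fatty acids were split. FFAR2, a receptor for short-chain fatty acids, rose from 177 to 393 counts, a log2 fold change of 1.15 ± 0.12 (DESeq adjusted p = 1.15e-21 in the authors' deposited table), and from 6.31 to 16.8 FPKM. FFAR4, a receptor for long-chain fatty acids, fell from 196 to 136 counts (-0.53 ± 0.15, DESeq adjusted p = 0.00145 in the authors' deposited table). FFAR1, the main long-chain fatty acid receptor of beta cells, and FFAR3, another short-chain receptor, share a locus with GPR42, a near-identical copy of FFAR3. That locus was at 2302 and 2285 counts (-0.01 ± 0.04, DESeq adjusted p = 0.895 in the authors' deposited table), while Cuffdiff called it higher by 0.23 (q = 0.0074 in the authors' deposited table). Within it, the FFAR1 transcript rose from 35.9 to 53.3 FPKM, by 0.57 on the log2 scale (Cuffdiff isoform q = 0.000833 in the authors' deposited table). The transcripts of the locus that carry no gene name summed to 85.5 and 88.7 FPKM, and those named FFAR3 to 0.289 and 0.395 FPKM. The rise of FFAR1 therefore rests on the transcript estimates alone, and the rule that divided reads between FFAR3 and GPR42 is not known here. The count value of this locus has a limit too. It held 17.3 counts per FPKM, where the median of 34 members' loci was 153, and the cause was not tested.

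The other Gq-coupled receptors also moved apart. CHRM3, the muscarinic receptor through which acetylcholine raises insulin release, rose from 778 to 1671 counts, a log2 fold change of 1.10 ± 0.06 (DESeq adjusted p = 1.89e-75 in the authors' deposited table), and its 3 tested transcripts all rose. P2RY1, a purinergic receptor for ADP, fell from 314 to 80.2 counts (-1.97 ± 0.15, DESeq adjusted p = 1.32e-36 in the authors' deposited table), and from 1.32 to 0.359 FPKM. CASR, the calcium-sensing receptor, fell from 13335 to 10663 counts (-0.32 ± 0.02, DESeq adjusted p = 6.47e-48 in the authors' deposited table). The whole CASR locus held 66.5 FPKM in control cells and 54.3 in cytokine cells. Both values were under those of the locus shared by FFAR1 and FFAR3, 122 and 143 FPKM. With shared loci read by each gene's own transcripts, CASR led the receptors of the list in control and came behind SSTR2 with cytokines. Its annotated transcripts alone summed to 28.2 and 21.1 FPKM, which put it below FFAR1, SSTR3 and SSTR2 in both groups. Its fall was called in the transcript CASR-201, from 11.3 to 6.59 FPKM (Cuffdiff isoform q = 0.00302 in the authors' deposited table). The transcript CASR-202, at 16.3 and 13.9 FPKM, was not called (Cuffdiff isoform q = 0.26 in the authors' deposited table), and the difference between these 2 transcripts was not tested. Of the 6 loci with a receptor of Gq or mixed coupling, the FFAR1 and FFAR3 locus among them, 2 rose and 3 fell by DESeq.

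**Figure D2:**
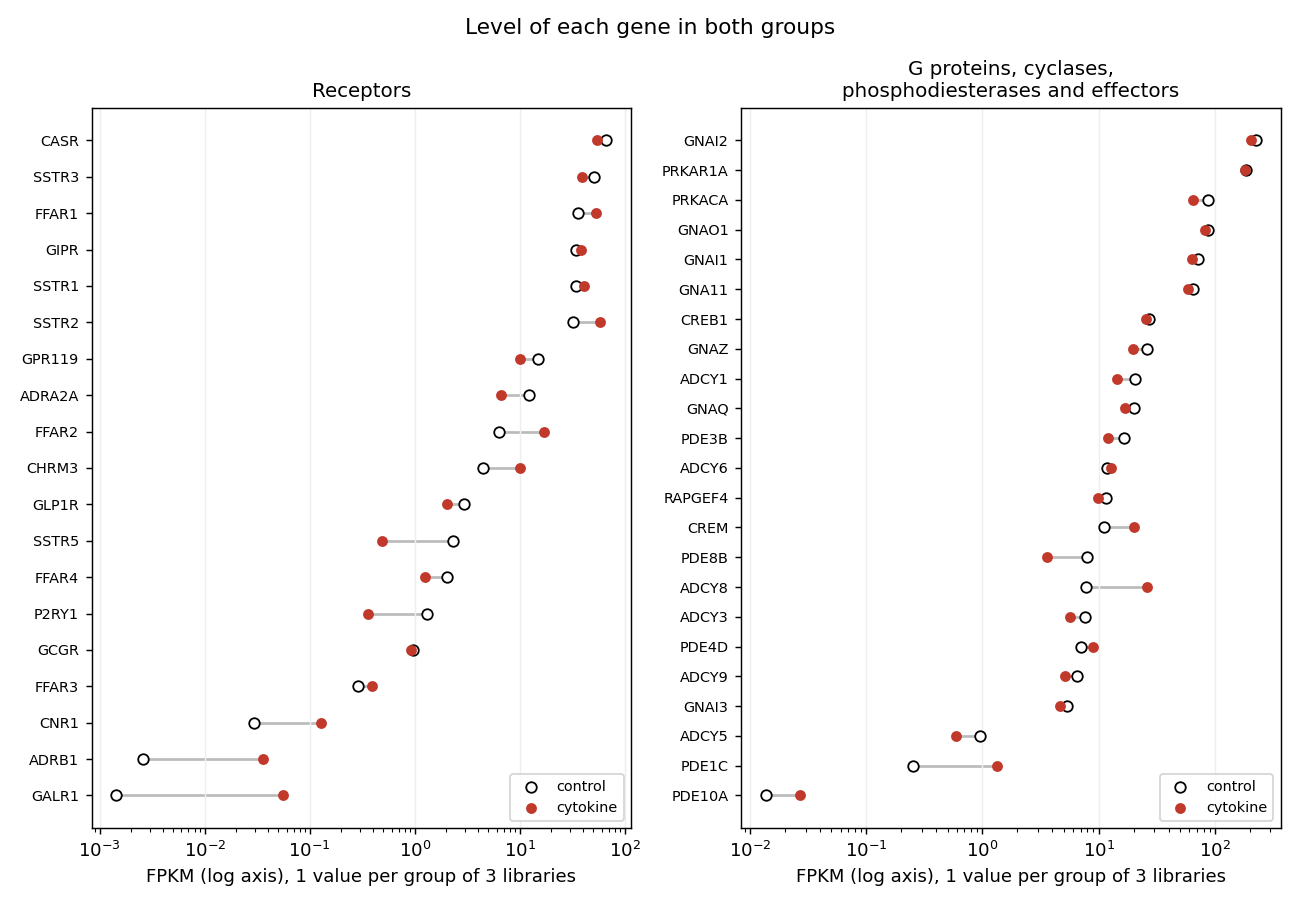
The FPKM of each gene in control (open circles) and cytokine cells (red) is drawn on a log axis, 1 value per group, with receptors on the left and downstream genes on the right. ADRA2C, listed at 0 in both groups, and GNAS, which has no FPKM value, are not drawn. For SSTR2, FFAR1, FFAR3, GNAI3 and PRKAR1A the value is the sum of their own named transcripts, and for the others that of the whole locus.

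Per length, the downstream genes were more abundant than the receptors. In control, 8 of 20 receptors were at 10 FPKM or more, 6 between 1 and 10, and 6 under 1. With cytokines 8 were at 10 FPKM or more, 4 between 1 and 10 and 8 under 1, since SSTR5 and P2RY1 dropped below 1 FPKM. Within the top band FFAR2 came in at 16.8 FPKM and ADRA2A left it at 6.60 FPKM. Of the 23 downstream genes with an FPKM value, 14 were at 10 FPKM or more in control and 14 with cytokines. GNAI2 at 226 FPKM, PRKAR1A at 185 FPKM, PRKACA at 87.5 FPKM and GNAO1 at 86.4 FPKM led the order in control. The order mixes whole loci with, for loci shared by genes, each gene's own transcripts. Without values per library, whether neighbours in this order differ beyond their spread was not tested.

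The G protein alpha subunits changed little in size. GNAS, which encodes the Gs alpha subunit (chr20:58839718-58911192, plus strand), was the locus with rank 2 among all loci by counts, at 475268 in control and 434325 with cytokines. Its log2 fold change was -0.13 ± 0.01 (DESeq adjusted p = 7.76e-18 in the authors' deposited table). The deposited locus also carries the name of an antisense RNA of GNAS, and Cuffdiff gave no value for it. The Gi subunits GNAI1 (-0.12), GNAI2 (-0.19) and GNAI3 (-0.14), the Gq class subunits GNAQ (-0.26) and GNA11 (-0.15), and GNAZ (-0.43), a relative of Gi, also fell on the DESeq log2 scale. GNAO1, the subunit of Go, rose by 0.06 ± 0.02 (DESeq adjusted p = 0.0157 in the authors' deposited table), but was at -0.08 and not called by Cuffdiff (q = 0.663 in the authors' deposited table). In all, 7 of 8 subunits fell and 1 rose by DESeq, whereas Cuffdiff called 2 of 7 lower, GNAI2 and GNAZ, and none higher. GNAI3 shares its locus with AMPD2, which encodes AMP deaminase. The Cuffdiff value of that locus was 0.20 and not called (q = 0.174 in the authors' deposited table), with 33.8 and 39.6 FPKM in transcripts named AMPD2 and 5.34 and 4.61 FPKM in that of GNAI3. At transcript level GNAO1-202 rose from 33.5 to 39.5 FPKM (Cuffdiff isoform q = 0.0109 in the authors' deposited table), and GNAQ-201 fell from 16.4 to 14.2 FPKM (Cuffdiff isoform q = 0.00501 in the authors' deposited table).

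The adenylyl cyclases, which make cAMP, went both ways. ADCY8, a cyclase stimulated by calcium and calmodulin, rose 3.19-fold, from 1359 to 4336 counts (log2 fold change 1.67 ± 0.04, DESeq adjusted p listed as 0 in the authors' deposited table). Both tested transcripts rose, ADCY8-201 from 1.86 to 4.79 FPKM and ADCY8-202 from 1.98 to 8.24 FPKM. ADCY1, also stimulated by calcium and calmodulin, fell from 8650 to 6092 counts (-0.51 ± 0.03, DESeq adjusted p = 1.10e-77 in the authors' deposited table). In control ADCY1 was the most abundant cyclase of the list at 20.4 FPKM, with ADCY8 at 7.82. With cytokines the ADCY8 locus led at 26.3 FPKM and ADCY1 stood at 14.3. On annotated transcripts alone ADCY8 and ADCY1 were close with cytokines, at 13.2 and 12.8 FPKM, and apart in control, at 3.93 and 18.1 FPKM.

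ADCY5, a cyclase inhibited by calcium and Gi, fell from 176 to 95.7 counts (-0.88 ± 0.16, DESeq adjusted p = 2.24e-07 in the authors' deposited table). ADCY3 fell from 725 to 435 counts (-0.74 ± 0.08, DESeq adjusted p = 3.74e-18 in the authors' deposited table), a fall that Cuffdiff gave as -0.41 and did not call (q = 0.156 in the authors' deposited table). ADCY9 fell by 0.42 on the DESeq log2 scale. ADCY6, a relative of ADCY5, was at 2460 and 2455 counts (-0.00 ± 0.04, DESeq adjusted p = 0.970 in the authors' deposited table), while its retained-intron transcript ADCY6-203 rose from 1.24 to 2.13 FPKM (Cuffdiff isoform q = 0.00436 in the authors' deposited table). Of 6 cyclases, 1 rose and 4 fell, where 18.0% and 19.7% of all loci tested did. Among loci of at least 1000 counts the shares were 32.9% and 45.3%, but ADCY3 and ADCY5 lay under that abundance.

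The phosphodiesterases, too, went both ways. PDE1C, activated by calcium and calmodulin, rose 4.82-fold, from 49.9 to 240 counts (log2 fold change 2.27 ± 0.18, DESeq adjusted p = 1.08e-34 in the authors' deposited table), and from 0.252 to 1.34 FPKM. PDE8B, a high-affinity enzyme specific for cAMP, fell from 1123 to 483 counts (-1.22 ± 0.07, DESeq adjusted p = 2.11e-68 in the authors' deposited table). Its deposited locus also carries the names of the antisense RNA ZBED3-AS1 and the pseudogene HMGB1P35, and its own annotated transcripts went from 3.73 to 1.18 FPKM. PDE3B, the most abundant of the 5 in both groups, went from 16.5 to 12.0 FPKM and fell by 0.39 on the DESeq log2 scale. PDE4D rose by 0.35 on that scale, from 7.01 to 8.86 FPKM. PDE10A was barely read, at 3.42 and 2.38 counts, and did not pass (DESeq adjusted p = 0.801 in the authors' deposited table). So 2 of 5 rose and 2 fell, also by Cuffdiff among the 4 it tested.

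Of the cAMP effectors, PRKACA, the catalytic subunit of protein kinase A, fell by 0.46 ± 0.03 on the log2 scale, from 8835 to 6435 counts (DESeq adjusted p = 2.00e-71 in the authors' deposited table). PRKAR1A, a regulatory subunit that holds it inactive, was at 19690 and 19472 counts (-0.02 ± 0.02, DESeq adjusted p = 0.609 in the authors' deposited table), in a locus shared with ARSG, whose transcripts summed to 0.289 and 0.380 FPKM. RAPGEF4, which encodes Epac2, fell by 0.24 on the log2 scale. CREB1, the CRE-binding activator, was at 1267 and 1161 counts and did not pass (-0.13 ± 0.06, DESeq adjusted p = 0.0607 in the authors' deposited table), though it did when loci under 50 counts were left out of the adjustment. CREM, a CREB relative with activating and repressing products, rose from 353 to 713 counts (1.01 ± 0.08, DESeq adjusted p = 5.14e-33 in the authors' deposited table), and from 11.0 to 20.0 FPKM. Of these 5 effectors 1 rose and 2 fell.

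In the transcript estimates, the added CREM FPKM lay in transcripts that start inside the gene. An internal CREM promoter is known for the inducible cAMP early repressor, ICER, a short repressor product. CREM occupies chr10:35126791-35212958 on the plus strand in hg38. Its 20 annotated transcripts that start upstream, between positions 35126791 and 35127477, summed to 7.49 FPKM in control and 7.37 with cytokines. The 4 that start 68336 bases downstream, between 35195127 and 35195147, summed to 0.224 and 3.63 FPKM, a ratio of 16.2. The 6 that start between 35195865 and 35196399 summed to 1.15 and 6.57 FPKM, a ratio of 5.69. The upstream starts thus held 82.1% of the summed CREM FPKM in control and 41.8% with cytokines. These sums have no test. Among 16 tested CREM transcripts, 1 passed the threshold: CREM-228, of the last group, rose from 0.964 to 4.58 FPKM, by 2.25 on the log2 scale (Cuffdiff isoform q = 0.000833 in the authors' deposited table). The other 3 tested transcripts of that group and the 3 of the middle group were not called one by one.

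**Figure D3:**
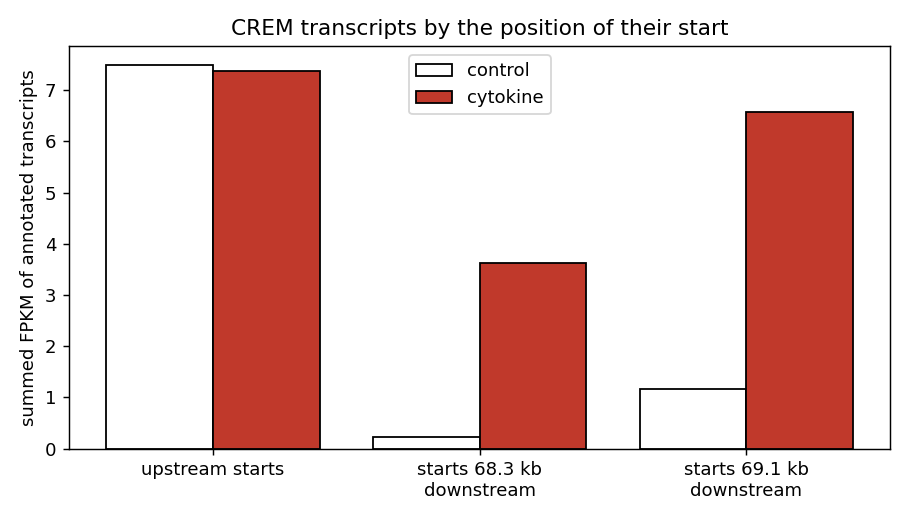
The summed FPKM of annotated CREM transcripts is drawn for 3 groups of starts, with control as open bars and cytokine as red bars, 1 value per group and no error. The upstream group is near 7.4 FPKM in both conditions, while both internal groups are higher with cytokines.

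To show what lies ahead of these starts, the 250 bases before 1 RefSeq start of each group were read from RefSeq (GRCh38.p14, plus strand). Capitals mark the palindromic CRE TGACGTCA, a variant with 1 base exchanged, TGATGTCA, and the STAT-binding pattern GAS, TTCNNNGAA, searched on both strands.
CREM upstream start, chr10:35126596-35126845: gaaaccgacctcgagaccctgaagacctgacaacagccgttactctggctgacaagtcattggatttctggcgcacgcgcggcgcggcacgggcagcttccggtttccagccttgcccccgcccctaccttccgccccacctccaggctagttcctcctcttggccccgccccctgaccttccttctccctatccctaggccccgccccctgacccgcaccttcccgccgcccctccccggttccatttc
CREM internal start, chr10:35194883-35195132: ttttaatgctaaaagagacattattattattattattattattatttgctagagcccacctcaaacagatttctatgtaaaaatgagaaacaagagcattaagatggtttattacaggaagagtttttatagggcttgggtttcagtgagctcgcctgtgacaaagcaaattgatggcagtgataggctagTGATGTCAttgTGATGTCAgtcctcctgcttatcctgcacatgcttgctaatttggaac
CREM internal start, chr10:35195652-35195901: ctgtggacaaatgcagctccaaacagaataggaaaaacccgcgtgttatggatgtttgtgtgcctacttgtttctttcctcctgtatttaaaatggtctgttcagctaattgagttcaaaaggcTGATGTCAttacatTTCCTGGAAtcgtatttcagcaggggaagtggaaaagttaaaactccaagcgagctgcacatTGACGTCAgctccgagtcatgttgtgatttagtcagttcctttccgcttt
The upstream window printed holds none of these letters. The window before another upstream start, 35127227, holds the shorter TGACG, a part of TGACGTCA, 178 and 68 bases before it. The window before 35195133 holds TGATGTCA with its first base 59 and 48 bases before the start. The window before 35195902 holds TGACGTCA 50 bases, TGATGTCA 126 bases and a GAS pattern 112 bases before the start. A CREM start at 35167564 also had the variant 56 bases before it, and the 4 transcripts starting between 35167516 and 35167726 summed to 0 FPKM in control and 0.0433 with cytokines. A match is a description of letters and not of binding.

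Over all 35116 RefSeq windows, which run from 250 bases before to 50 bases after a start, TGACGTCA stood in 1.85%, TGATGTCA in 2.61% and the GAS pattern in 7.66%. Windows were listed for 37 of the 44 members, 84 in all. TGACGTCA was in 5 of the 84, those of CREM, GNAO1 and PRKAR1A, and TGATGTCA was in 4, all of CREM. Windows of 1 gene can overlap, so 1 site can count in more than 1 window, as in CREM and PRKAR1A. These counts are therefore not counts of separate sites. TGATGTCA was added after the CREM values were seen, so its count in CREM is a description only. The shorter TGACG, which lies within TGACGTCA on both strands, was in 25 of the 84 windows and in 24.6% of all windows. GAS stood in 7 windows of 6 members, CNR1, CREM, FFAR1, GNAS, PDE4D and RAPGEF4. An interferon-stimulated response element core was in 1 window, of GNAI1, against 3.57% of all windows, and an NF-κB pattern in 2, of ADCY3 and PRKAR1A, against 5.91%.

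Across all members' transcripts, 14 of 136 tested rose and 12 fell (Cuffdiff isoform q under 0.05 in the authors' deposited table), where 5.17% and 4.70% of all 95649 tested transcripts did. The 14 belonged to 11 genes and the 12 to 12 genes, and no gene had transcripts called in both directions. The 14 include the 1 SSTR1 transcript, at 26.5 and 32.3 FPKM, whose gene had almost no counts in the count table. Besides those named above, transcripts of FFAR2, PDE1C and PDE4D rose, and transcripts of SSTR3, SSTR5, P2RY1, GNAZ, ADCY1, ADCY5, ADCY9, PRKACA and RAPGEF4 fell.

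At gene level Cuffdiff tested 37 of the members' loci, calling 9 higher and 17 lower, against 17.8% higher and 17.9% lower over all loci it tested. A total of 24 loci were called by both tools, all in the same direction. DESeq alone called 7, GIPR, ADCY3 and 5 alpha subunits, and Cuffdiff alone called 2, SSTR1 and the FFAR1 and FFAR3 locus. Neither called the remaining 4.

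**Figure D4:**
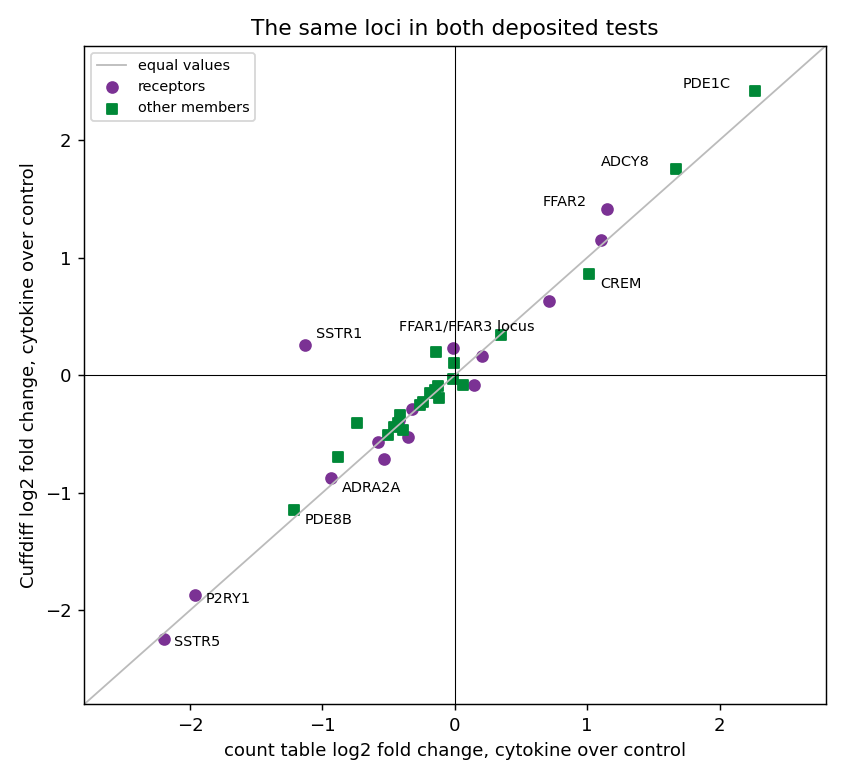
Each point is 1 of 37 members' loci, with the DESeq log2 fold change of the count table on the horizontal and the Cuffdiff log2 fold change on the vertical axis. Most points lie near the line of equal values, and SSTR1 lies far from it, at -1.13 by DESeq and 0.25 by Cuffdiff.

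A further 201 genes of the pathway, listed by function in 8 lists, gave 174 tested loci, of which 43 rose and 58 fell (24.7% and 33.3%, beside 18.0% and 19.7% over all loci) at a DESeq adjusted p under 0.05 in the authors' deposited table. Among loci of at least 1000 counts, 32.9% rose and 45.3% fell. The counts by list that follow are read beside these shares, so none is a result about its list. Of 63 other receptors 12 rose and 19 fell. S1PR1, a receptor for sphingosine 1-phosphate, rose from 4.45 to 150 counts (log2 fold change 5.07). VIPR2, a Gs-coupled receptor for VIP and PACAP, fell from 270 to 50.8 counts (-2.41), KISS1R, the kisspeptin receptor, from 191 to 63.0 (-1.60), and S1PR3, in a locus with C9orf47, from 91.6 to 34.1 (-1.43). The locus of GABBR1, a subunit of the GABA-B receptor, rose from 1389 to 49359 counts, but it also holds UBD, a ubiquitin-like modifier, and the value belongs to both.

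Of 18 other G protein subunits 8 rose and 5 fell. GNAL, a Gs-like alpha subunit, rose from 25.1 to 88.4 counts (log2 fold change 1.82), GNB4 from 917 to 1951 (1.09) and GNG5, in a locus with CTBS, from 3055 to 3771 (0.30), while the gamma subunit GNG4 fell from 6092 to 2138 (-1.51), GNG7 from 72.4 to 40.2 (-0.85) and GNA12 from 3728 to 2930 (-0.35). Of 32 regulators of receptors and G proteins 9 rose and 13 fell. The RGS proteins, which speed the shut-off of G proteins, were split: RGS16 rose from 78.6 to 317 counts (2.01), RGS20 from 89.5 to 247 (1.46) and RGS17 from 1490 to 4006 (1.43), while RGS10 fell from 132 to 59.0 (-1.16) and RGS3 from 2756 to 1367 (-1.01). RAMP1, a partner of calcitonin-type receptors, fell from 2281 to 1173 counts (-0.96).

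Of 4 other cyclases, ADCY4, in a locus with RIPK3, rose from 29.0 to 76.3 counts (log2 fold change 1.40) and ADCY7 fell from 69.0 to 34.8 (-0.99). Of 13 other phosphodiesterases 1 rose, PDE11A by 0.23, and 5 fell, led by PDE5A, specific for cGMP, from 1802 to 647 counts (-1.48), PDE1A from 2306 to 1397 (-0.72) and PDE4B from 167 to 121 (-0.47). Of 23 genes of protein kinase A, its inhibitors and anchors, Epac1 and Rap1, 7 rose and 9 fell. The protein kinase A inhibitor PKIB rose from 1910 to 4531 counts (1.25), while its relative PKIA fell from 1221 to 726 (-0.75). The anchor AKAP7 rose by 1.30 and the small GTPase RAP1B by 0.71, and the anchors AKAP6 and AKAP5 fell by 1.06 and 0.65 on the log2 scale.

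Among 9 CREB relatives and partners 2 rose and 2 fell. SIK1, a kinase induced by cAMP that holds the CRTC coactivators in the cytoplasm, rose from 110 to 1058 counts (log2 fold change 3.26 ± 0.10, DESeq adjusted p = 9.46e-219 in the authors' deposited table). In FPKM, SIK1 was under 1 in both groups, at 0.0904 in control and 0.834 with cytokines. Why its FPKM was low beside its counts was not tested. hg38 holds a near-identical copy of SIK1, and the rule that divided its reads is not known here. CRTC1 fell by 0.35 and CRTC3 by 0.14 on the log2 scale, and CRTC2, in a locus with SLC39A1, rose by 0.21. Of 12 genes known to respond to cAMP 3 rose and 4 fell, beside 18.0% and 19.7% of all loci and 32.9% and 45.3% of loci of at least 1000 counts. JUNB rose from 1345 to 2506 counts (0.90), PER1, in a locus with VAMP2, by 0.30 and DUSP1 by 0.24. FOS fell from 2470 to 872 counts (-1.50), FOSB from 112 to 50.5 (-1.15) and EGR1 from 2343 to 1058 (-1.15).

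**Figure D5:**
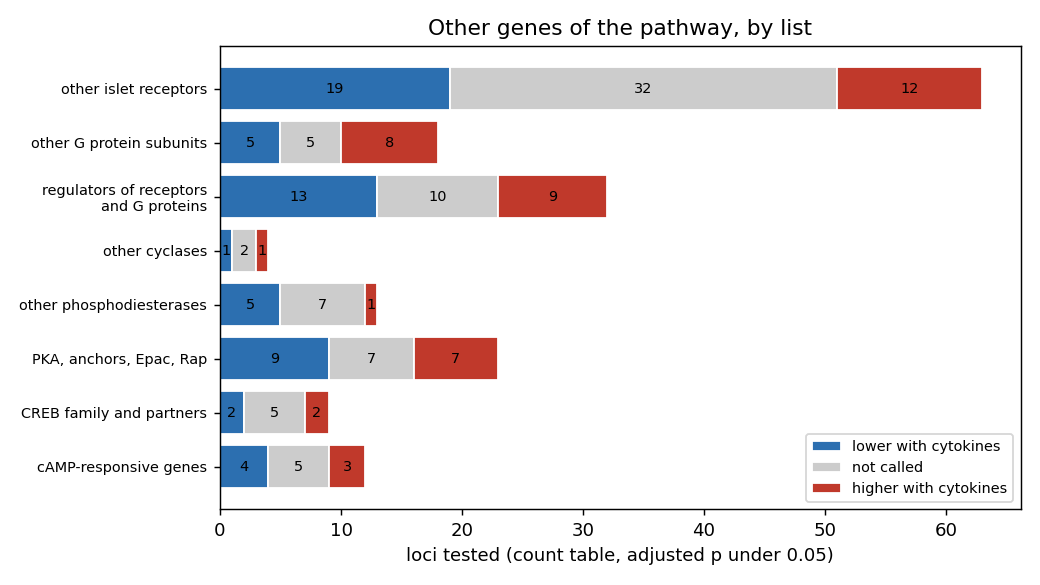
Each bar is 1 of the 8 lists of other pathway genes, split into the number of tested loci that were lower (blue), not called (grey) and higher (red) with cytokines at a DESeq adjusted p under 0.05. Each list holds loci of all 3 kinds.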

How the data were processed

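Per the submitters' processing notes, the reads passed through bcl2fastq and FastQC 0.10.1, and the notes further name STAR 2.5.2b, StringTie, DESeq, Cuffdiff 2.2.1 and the build hg38. Not given in the sources used here: read counter, strand setting, annotation. Signal in the deposited count tables is the mean of normalized read counts over 6 libraries, per the file headers. The log2 values deposited by the authors give the change from control to cytokine libraries and, for counts, its SE. The score deposited by the authors is each test's statistic. The p-values, adjusted p-values and q-values are the authors' DESeq and Cuffdiff results as deposited. FPKM values are the authors' Cuffdiff group values as deposited. These tables hold 1 comparison and no counts per library, so the planned edgeR fit was not made and the authors' adjusted p under 0.05 was used. Group means were computed from each locus's mean and fold change, which treats the fitted fold as a ratio of means.

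The members and lists were chosen with earlier results of these data known. All 44 members are named; of each further list, up to 3 largest rises and falls past the threshold with at least 50 counts, of which 1 is not reported here. The TGATGTCA pattern was added, and starts were grouped at gaps of 500 bases, after the CREM values were seen. Coordinates are from GENCODE 44. Loci without a gene name held 1.34% of counts. A re-centring script was tested on simulated data. Exact intervals cover counting error only. The smallest q Cuffdiff gave was 0.000232 for genes and 0.000833 for isoforms. Computations used numpy 2.4.6 and pandas 2.3.3 under Python 3.11.15, intervals scipy 1.17.1, figures matplotlib 3.10.9.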

Additional observations from a re-analysis of the deposited data

How the results depend on the processing

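No paired analysis was possible because the tables hold no values per library, and leaving out 1 library at a time could not be run for the same reason. Depth limits ADRB1, GALR1, CNR1, SSTR1 and PDE10A, each under 10 counts in a group. The counts of members called stayed within 1.5 times of 12 higher and 23 lower under Cuffdiff, re-centring by -0.06 on abundant loci, no filter on low counts, at least 50 counts, an adjusted p under 0.01 and loci of 1 protein-coding gene. Asking also for a 1.5-fold change left 6 members lower, and 28 higher and 31 lower in the further lists. The median log2 fold change of the members was -0.11 after re-centring and -0.25 over loci of 1 protein-coding gene.

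Direction turned under Cuffdiff for GCGR (-0.082), SSTR1 (0.25), the FFAR1 and FFAR3 locus (0.23), GNAI3 (0.20), GNAO1 (-0.083) and ADCY6 (0.10). On FPKM with a pseudocount of 0.1 it turned, among called loci, for GNAI3 (0.20) and GNAO1 (-0.083). Re-centring turned the FFAR1 and FFAR3 locus (0.045), ADCY6 (0.053) and PRKAR1A (0.040), none of them called before, and ended the call of GNAI1 (-0.067). Under Cuffdiff the falls of GNAI1, GNAQ, GNA11 and ADCY3 and the rise of GIPR were no longer called. The cause was not tested. With that pseudocount, 26 other fold changes lay further than 1 SE from the DESeq value, without a turn of direction at a called locus. Summing only annotated transcripts moved 27 of the members' group FPKM levels by over 1.5 times and left 59 within that range.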
